A study of Mus musculus with 6 samples.

Results

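Cd53, Cd37, Cd9, Cd63, Cd81, Cd82 and Cd151 encode tetraspanins found on blood cells, and their probe sets were followed on 6 Affymetrix arrays. The 7 genes were chosen by name, as all probe sets carrying their platform symbol, with the response of Cd53 to doxycycline already known. Of the 7, 6 had a probe set (14 in all, among 45037 on the array that are not controls), and Cd63 was not analysed here because no probe set carried its symbol alone. The cells were Ba/F3, an interleukin-3 dependent mouse line of BALB/c background labelled as leukemia cells and grown with supernatant of WEHI-3 cells. All of them, untreated cells included, were transduced with a Tet-on retroviral construct for PAX5-KIDINS220, a fusion of the B-lineage transcription factor PAX5 with the membrane scaffold KIDINS220. The Dox(-) group was 3 samples without doxycycline and the Dox(+) group 3 samples with 500 ng/mL, and RNA was taken at 24 h. The study asked which pathways respond to the fusion. No cells without the fusion construct were measured, so the action of the drug and that of the fusion cannot be told apart.

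Tetraspanins cross the membrane 4 times, and bind integrins, immunoglobulin superfamily proteins and each other, which gathers these partners into patches of the cell surface. Cd53 and Cd37 are largely restricted to leukocytes. Cd81, Cd82, Cd151 and Cd9 are made in many tissues, and Cd63 marks late endosomes and secreted vesicles. Cd53 has a part in early B cell development and in the homing of lymphocytes.

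The array codes in the titles start with EA15 for 1 Dox(-) and 1 Dox(+) array and with EA20 for 2 arrays of each group. The labels do not say what the codes stand for. Doxycycline was therefore compared within each code set. Within EA20 the Dox(+) codes come before the Dox(-) codes, so an effect of that order cannot be told apart from treatment. Signals had been scaled to a trimmed mean of 500 on every array, with medians of 56.3 to 65.6. Of the 7 genes set down for the line, Ptprc, Csf2rb, Csf2rb2, Il3ra, Cd44 and Spi1 had mean signals of 646 to 16950, while Kit was at 31.5. The 5 fibroblast and 5 epithelial markers were all under 100. Of the 5 B cell markers measured only Cd79b was above 100. Markers of other lineages were not all low. Adgre1 (897), Csf1r (273) and Lyz2 (182) of 6 macrophage markers were above 100. So were Ms4a2 (517) and Cma1 (260) of 6 mast cell and basophil markers. Itga2b (2748) and Gp9 (834) of 4 platelet markers measured were too, as were Cd3g (219) of 5 T cell markers and 4 of 5 eosinophil markers. These are means over both code sets. In EA15 Cma1 averaged 30.2 and Cd3g 21.4, against 374 and 318 in EA20. The eosinophil markers Epx (64.5) and Prg3 (8.53) were also under 100 in EA15. The other markers given as above 100 averaged above 100 in both sets. The Pax5 probe set 1421765_at read 15.6, 3.76 and 20.3 in Dox(-) and 119, 94.5 and 94.2 in Dox(+), with a log2 difference of 2.06 that did not pass (limma adjusted p 0.12). The other Pax5 probe set, 1454401_at, read 23.9, 92.0 and 81.4 in Dox(-) and 51.6, 133 and 48.1 in Dox(+), so the groups overlapped (log2 difference 0.21, limma adjusted p 0.92). The 4 Kidins220 probe sets were at log2 differences of -0.08 to 0.26, and none passed. It was not checked which of these Pax5 and Kidins220 probe sets, if any, also read the fusion transcript. Whether the 3 samples of a group were separate cultures is not stated, so the spread behind each p-value may be only technical.

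The stretch of DNA around the start site is shown for Cd53 and Cd37, the leukocyte genes whose signals differed in opposite directions between the code sets, and for Cd81 as a broadly expressed member. Each runs from 170 bases before to 30 bases after the RefSeq start (GRCm38.p6), 5′ to 3′ on the gene's strand. Cd53 lies at chr3:106790120-106790319 (minus strand), Cd37 at chr7:45238810-45239009 (minus strand) and Cd81 at chr7:143052580-143052779 (plus strand). Capitals mark the letters GAGGAA, a core bound by PU.1 and other ETS factors, and GGGCGG, a GC box bound by SP1, each searched on both strands.
Cd53: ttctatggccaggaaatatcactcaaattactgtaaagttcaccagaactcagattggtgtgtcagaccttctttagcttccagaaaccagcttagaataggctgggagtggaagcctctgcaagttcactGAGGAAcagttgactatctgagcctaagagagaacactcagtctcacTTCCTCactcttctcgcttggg
Cd37: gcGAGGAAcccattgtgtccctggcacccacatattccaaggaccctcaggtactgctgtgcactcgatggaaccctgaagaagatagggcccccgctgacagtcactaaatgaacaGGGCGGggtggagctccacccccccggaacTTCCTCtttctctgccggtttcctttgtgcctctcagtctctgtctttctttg
Cd81: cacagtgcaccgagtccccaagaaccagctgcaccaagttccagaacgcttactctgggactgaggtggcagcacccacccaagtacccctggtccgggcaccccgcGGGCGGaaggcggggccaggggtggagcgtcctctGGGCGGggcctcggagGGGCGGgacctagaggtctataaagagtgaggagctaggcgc

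The Cd53 stretch held GAGGAA at bases -39 to -34 and, on the other strand, at 9 to 14, counted from the start site with 1 as the first transcribed base. It held no GC box and 46.3% G and C over the window of 300 bases, against a median of 52.7% over 32851 windows of all genes. Cd37 held GAGGAA at -168 to -163 and, on the other strand, at -23 to -18, and 1 GC box at -53 to -48, with 57.7% G and C. Cd81 held 3 GC boxes and no GAGGAA, with 65.7% G and C. In windows of the same length over all genes, 28.3% held GAGGAA and 35.7% held GGGCGG. The window of Cd9 and the first listed of the 4 Cd82 and of the 2 Cd151 windows had 2 GC boxes each and no GAGGAA. The third Cd82 window held GAGGAA at 2 places and no GC box. The window of Cd63 had GAGGAA at -244 to -239 and at -59 to -54 and no GC box. The GATA letters AGATAA (11.2% of all windows) were in none of the 11 windows of the 7 genes. These matches describe letters only.

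Cd53 had the largest difference between Dox(+) and Dox(-) among the 14 probe sets. Its bright probe set 1448617_at read 12046 in the Dox(-) and 16366 in the Dox(+) array of EA15. In EA20 it read 4113 and 3899 in Dox(-) and 7185 and 6940 in Dox(+). Within each code set the Dox(+) arrays were higher, but the groups overlapped over all 6 arrays because both EA15 arrays lay far above those of EA20. The group means were 6686 ± 4643 and 10164 ± 5373 (SD, n = 3 arrays each). With the code set as a block, Dox(+) was 1.61 times Dox(-) on the scale of log2(signal + 16), with a 95% interval of 1.41 to 1.84. The ratio was 1.36 in EA15 and 1.76 in EA20.

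The dimmer Cd53 probe set 1459744_at read 254, 40 and 69.9 in Dox(-) and 415, 114 and 106 in Dox(+), the first of each being the EA15 array. It had the same order as the bright one, with EA15 on top and Dox(+) higher within each set. Its blocked ratio was 1.74 (1.21 to 2.50), with 1.59 in EA15 and 1.82 in EA20.

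In the limma fit across all 45037 probe sets with the code set as a block, 26 probe sets were higher in Dox(+) (0.0577%) and 13 lower (0.0289%) at an adjusted p under 0.05. One of the 14 was among the higher ones, the bright Cd53 probe set, and 0 among the lower ones. That result was known when the genes were chosen, so it is a description and not a test. Without the block limma called 0 of 45037 (0%), with 1341 at an unadjusted p under 0.05, and in EA20 alone 56 (0.124%), with the bright Cd53 probe set among them. Its call was lost without the block, without the mean-variance trend, with a pseudocount of 64 and on leaving out any 1 of the 4 EA20 arrays, with log2 differences of 0.63 to 0.69 in these fits. Over all 16 alternatives the log2 difference stayed between 0.63 and 0.82, but several of these could not move it. Leaving out the block, the trend or dim probe sets, a robust prior and 1 probe set per gene all keep the same 0.69. Leaving out either EA15 array gives the estimate of EA20 alone again (0.82).

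Eosinophil markers were read on the same arrays. Their 5 measured genes (Epx, Prg2, Prg3, Ccr3 and Siglecf) summed to 300.1 to 17531 in Dox(-) and to 553 to 23664 in Dox(+). The low end of each range is the EA15 array, where Prg2 read 148 in Dox(-) and 207 in Dox(+). In EA20 Prg2 read 15574 and 15405 in Dox(-) and 20881 and 19894 in Dox(+). The ranges thus mainly show the gap between the code sets. Siglecf, an inhibitory lectin of eosinophils, rose 1.92-fold (limma adjusted p 0.019). Ccr3, the eotaxin receptor gene, read 4.11, 6.23 and 4.97 in Dox(-) and 37.1, 137 and 81.7 in Dox(+). Its log2 difference of 2.14 did not pass (limma adjusted p 0.13). The part of these markers in the Cd53 difference was not tested.

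Cd37, the other leukocyte tetraspanin, differed with doxycycline by less than Cd53, and its 2 probe sets were unlike. Probe set 1419206_at read 1363, 1745 and 1875 in Dox(-) and 1160, 2050 and 1902 in Dox(+). The EA15 pair was lower in Dox(+) and the EA20 arrays were higher, and the groups overlapped. The blocked ratio was 1.01 (0.878 to 1.15), with 0.853 in EA15 and 1.09 in EA20. Probe set 1425736_at read 335, 450 and 344 in Dox(-) and 383, 482 and 501 in Dox(+), and its ratio was above 1 in both sets, at 1.14 and 1.24. Its blocked ratio was 1.21 (1.0 to 1.45).

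Cd81, a tetraspanin made in many tissues, had 1 probe set, which read 1580, 1190 and 1055 in Dox(-) and 1439, 1336 and 1197 in Dox(+). The Dox(+) values lay inside the range of Dox(-), with a blocked ratio of 1.05 (0.912 to 1.21). Like the main Cd37 probe set, it was lower with doxycycline in EA15 (ratio 0.912) and higher in EA20 (1.13).

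Cd82, also known as a suppressor of metastasis, was higher with doxycycline in EA20. Its bright probe set 1416401_at read 1174, 1676 and 1736 in Dox(-) and 1153, 2244 and 2165 in Dox(+). The EA15 arrays were nearly level, with a ratio of 0.982, and both EA20 Dox(+) arrays lay above both Dox(-) arrays, with a ratio of 1.29. The blocked ratio was 1.18 (1.03 to 1.35). The dim probe set 1449611_at had ratios of 1.02 and 1.41 in EA15 and EA20.

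Cd151, which binds the laminin receptors among the integrins, had 6 probe sets. The brightest, 1437670_x_at, read 1315, 1579 and 1571 in Dox(-) and 1354, 1932 and 1941 in Dox(+). The Dox(+) array was the higher one in each set, narrowly in EA15 (ratio 1.03) and by more in EA20 (1.23). Over its 4 probe sets with signals above 500 the blocked ratios were 1.12 to 1.22. The other 2, 1427525_at and 1420921_at, with signals of 45.8 to 220, had blocked ratios of 0.816 and 0.807 and fell below 1 only in EA20 (0.695 and 0.628). Probe sets of this gene thus differed in direction. Those ending in _x_at can also bind related transcripts.

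Cd9, known from platelets and from sperm-egg fusion, was dim. Its single probe set read 13.3, 12.9 and 35.8 in Dox(-) and 9.09, 11.2 and 4.99 in Dox(+), below the median probe set of the array in all 6. The 3 Dox(+) values lay below the 3 Dox(-) values, as was so in either direction for 7.73% of all probe sets. At this brightness the blocked ratio of 0.688 had an interval of 0.407 to 1.16.

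**Figure D1:**
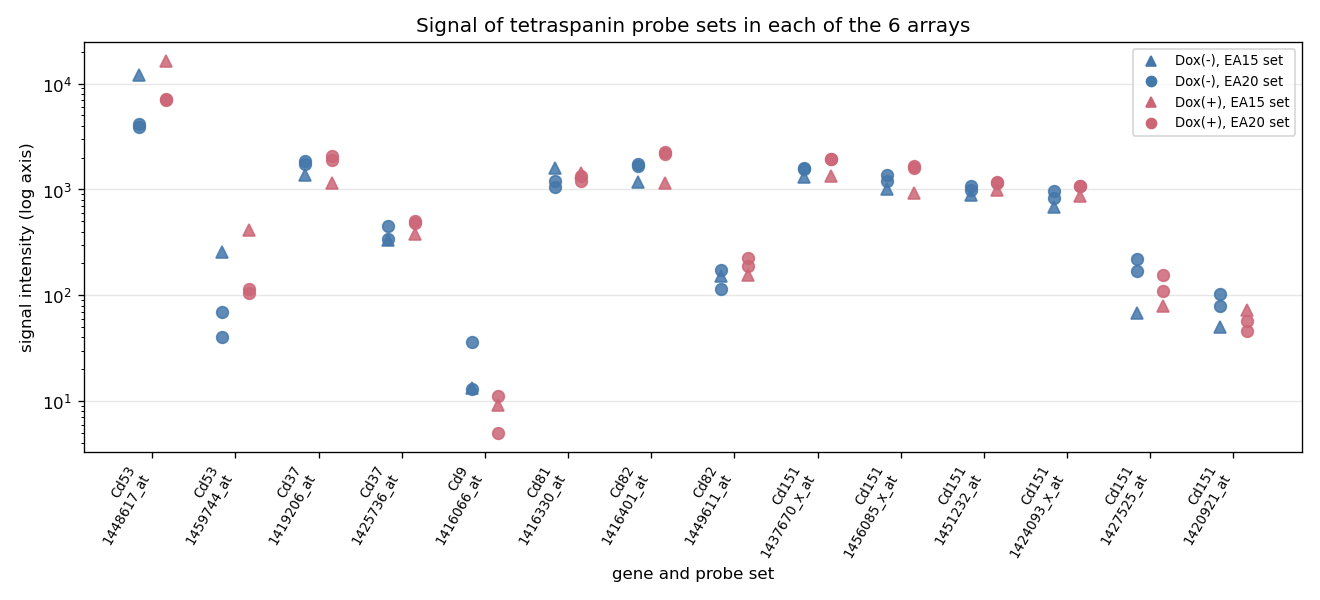
Signal intensity (log axis) of each of the 14 tetraspanin probe sets, 1 point per array, with Dox(-) in blue, Dox(+) in red, EA15 as triangles and EA20 as circles. Cd53 in EA15 stands at 12046 and 16366 against 3899 to 7185 in EA20, and Cd9 lies under 36; heights of different probe sets are not comparable.

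Within EA20, both Dox(+) arrays lay above both Dox(-) arrays in 11 of the 14 probe sets and below them in the other 3. Over all probe sets 19.1% were higher in that way and 21.3% lower. The 14 come from 6 genes, with 6 probe sets of Cd151 alone, so they are not independent. Those shares are not matched for brightness, and 12 of the 14 had a mean signal of at least 100. The sign of the EA15 ratio was the same in 8 of the 14 and opposite in 6. The opposite case made up 18% of all probe sets. That is 8121 among the 8609 probe sets higher and 9591 lower in EA20 in that way, the like group for these 14. As this is the comparison by which Cd53 was known, these shares are a description.

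**Figure D2:**
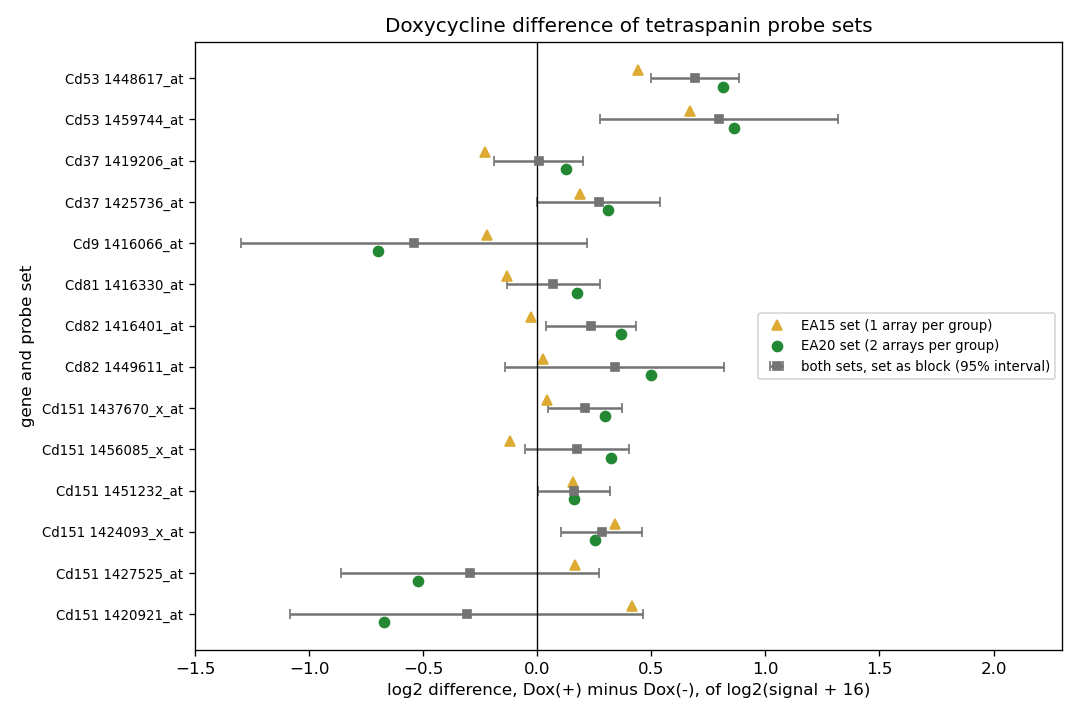
Log2 difference, Dox(+) minus Dox(-), of log2(signal + 16) for each probe set: squares with 95% intervals for both sets with the set as a block, triangles for EA15 (1 array per group) and circles for EA20 (2 per group). Both Cd53 probe sets lie right of 0 in both sets, at 0.44 and 0.67 in EA15 and 0.82 and 0.86 in EA20, while the main Cd37, Cd81 and Cd82 probe sets have opposite signs in the 2 sets.

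The difference between the code sets is not part of the rule that chose the genes and was tested in the same limma fit, with doxycycline as a term. The genes were chosen with earlier results of these arrays known, so these p-values are not from an independent choice. Neither code set was repeated. All p-values and intervals between the sets therefore weigh the gap against the spread of arrays within a set. They do not measure how much one such set differs from another. Cd53 was lower in EA20 than in EA15, while Cd37, Cd82 and Cd151 were higher. Of the 14 probe sets 6 were higher in EA20 and 3 lower at an adjusted p under 0.05. Over all 45037 probe sets 13.4% were higher and 11.4% lower (24.8% in all). Among the 18874 with a mean signal of at least 100 the share was 55.4%, and all 9 called here were among the 12 tetraspanin probe sets of that brightness.

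Cd53 averaged 14206 in the 2 EA15 arrays and 5534 in the 4 EA20 arrays, and EA20 was 0.379 times EA15 (95% interval 0.330 to 0.437, limma adjusted p 4.3e-06). All 4 EA20 arrays lay below both EA15 arrays, a separation that 39.6% of all probe sets showed in either direction. The dim Cd53 probe set was at 0.274 (0.187 to 0.402, limma adjusted p 0.00032). For Cd53 the gap between the sets (2.64-fold, EA15 over EA20) was thus wider than the blocked ratio of 1.61 between Dox(+) and Dox(-).

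Cd81 also fell, by less, to 0.792 of its EA15 level (0.682 to 0.920, limma adjusted p 0.028). That call was lost without the mean-variance trend and on leaving out any one of the 3 Dox(-) arrays or replicate 3 of Dox(+), with log2 differences of -0.35 to -0.18 in these fits.

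Cd82 rose 1.66-fold from EA15 to EA20 (1.44 to 1.91, limma adjusted p 0.00025) and Cd37 1.5-fold (1.30 to 1.73, limma adjusted p 0.0010) by their bright probe sets. The Cd37 call was lost without the trend. The dim probe sets of both genes did not pass, with ratios of 1.22 (0.999 to 1.48) for Cd37 and 1.10 (0.775 to 1.57) for Cd82.

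For Cd151, 4 of 6 probe sets rose, with ratios of 1.27 to 1.95. The brightest rose 1.31-fold (limma adjusted p 0.0042), a call lost without the trend and without replicate 1 of Dox(+). The others were lost too: 1456085_x_at in the same 2 fits, 1424093_x_at without replicate 1 of either group and 1427525_at without any one of the Dox(-) arrays or replicate 3 of Dox(+). The calls of 1424093_x_at and 1427525_at were also lost without the trend. The call of 1424093_x_at was also lost with median centring. Cd9 was at 1.12 (0.642 to 1.96) and did not pass.

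Of the 5 eosinophil markers measured, 4 differed between these sets by more than Cd53. Prg2, the eosinophil major basic protein, averaged 178 in EA15 and 17938 in EA20 (limma adjusted p 8.7e-11), and Epx, Prg3 and Siglecf rose too. Of the 7 genes set down for Ba/F3 itself, 6 rose in EA20, from 1.35-fold for Spi1 to 3.66-fold for Cd44. All 10 of these had a mean signal of at least 100, where 55.4% of probe sets were called between the sets, and 16.8% of all genes rose. The part of cell state in the tetraspanin differences was not tested, and culture, RNA preparation and array handling cannot be told apart here.

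**Figure D3:**
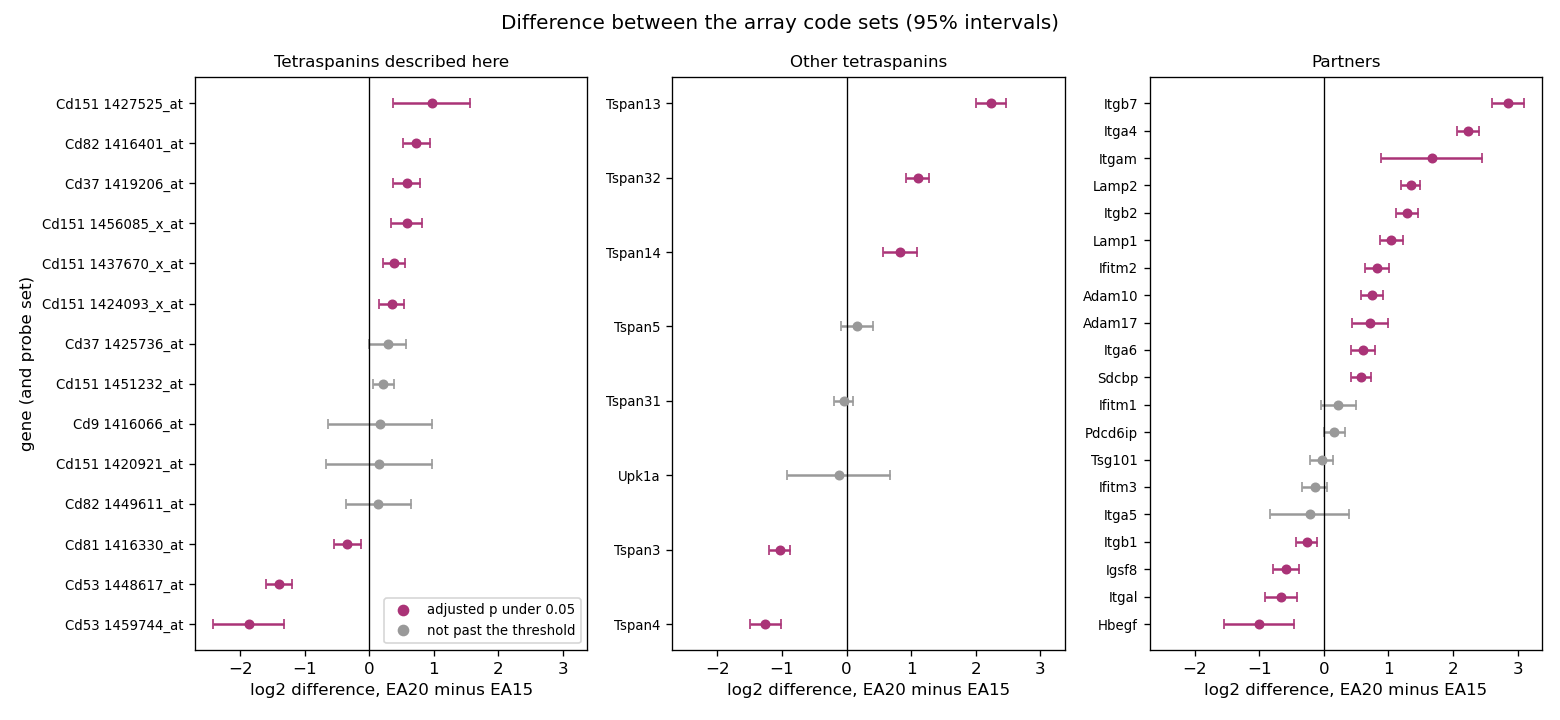
Log2 difference between the code sets, EA20 minus EA15, with 95% intervals, for the 14 tetraspanin probe sets and for other tetraspanins and partners with a mean signal of at least 100; purple points passed an adjusted p of 0.05. Cd53 lies at -1.40 and -1.87, Tspan13 at 2.24 and Itgb7 at 2.86.

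The rest of the family was read from a list of 24 other tetraspanin genes, of which 23 had a probe set, each represented by its brightest. None of the 23 passed between Dox(+) and Dox(-) by limma with the block (0.143% of 18193 genes did), and 4 had an unadjusted p under 0.05, against 11.2% of all genes. The median log2 difference was 0.13, against -0.01 over all probe sets. In the 6 with the highest signals the log2 differences ran from -0.12 for Tspan3 to 0.24 for Tspan32 (limma adjusted p 0.63 and 0.36). Tspan32, a tetraspanin of blood cells, read 2624, 5048 and 5449 in Dox(-) and 2810, 6916 and 6145 in Dox(+). It was higher in Dox(+) within each set, but its second probe set 1431289_at was at -0.08 in EA15 and -0.20 in EA20.

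Between the code sets 4 of the 23 rose in EA20 and 2 fell, where 16.8% and 15.8% of all genes did. Tspan13 went from 1519 to 7242, a rise of 4.71-fold (4.02 to 5.53, limma adjusted p 6.6e-07), and its second probe set 1460239_at passed as well. Tspan32 rose 2.15-fold, Tspan14, which escorts the protease ADAM10, 1.77-fold, and the dim Rom1 1.90-fold (limma adjusted p 9.1e-06, 0.00047 and 0.032). Tspan3 fell to 0.489 and Tspan4, of migrasomes, to 0.418 (limma adjusted p 6.6e-06 and 1.9e-05). Tspan31 differed little, at 0.968 (0.878 to 1.07).

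Known partners of tetraspanins were listed as 26 genes, 25 of them measured. None of these passed between Dox(+) and Dox(-) by limma with the block, with 6 at an unadjusted p under 0.05, against 11.2% of all genes. The 6 brightest were Ifitm1, Ifitm2, Ifitm3, Sdcbp, Itgb2 and Lamp1. Ifitm1, an interferon-induced membrane protein, was at 0.00 on the log2 scale (SE 0.11, limma adjusted p 1.0) and Ifitm3 at -0.01. Itgb2, the chain shared by the leukocyte integrins, was at 0.16 and Sdcbp (syntenin, a Cd63 binder) at 0.11. The largest fall of the 6 was that of Lamp1, a membrane protein of lysosomes, at -0.25 (limma adjusted p 0.32).

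Between the sets 11 partners rose in EA20 and 4 fell, where 16.8% and 15.8% of all genes did. All 15 were among the 20 partners with a mean signal of at least 100, and of all probe sets that bright 55.4% were called. Among the 6 brightest, Itgb2 rose 2.44-fold, Lamp1 2.06-fold, Ifitm2 1.77-fold and Sdcbp 1.49-fold (limma adjusted p 2.5e-06, 9.7e-06, 5.4e-05 and 0.00021). Itga4 and Itgb7, which form the gut-homing integrin, rose 4.72-fold and 7.24-fold (limma adjusted p 1.3e-07 and 2.3e-07). The other risers were Itgam at 3.18-fold, Lamp2 at 2.54-fold, the proteases Adam10 at 1.67-fold and Adam17 at 1.64-fold, and Itga6 at 1.52-fold (limma adjusted p 0.0054, 9.6e-07, 6.5e-05, 0.0020 and 0.00041). Those that fell were Igsf8, a direct partner of Cd9 and Cd81, to 0.667, Itgal to 0.629, Itgb1 to 0.830 and Hbegf to 0.499 (limma adjusted p 0.00089, 0.0013, 0.018 and 0.012).

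The genes whose signal followed that of Cd53 most closely over the 6 arrays were found among 9073 genes with a mean signal of at least 100. By Pearson's correlation of log2(signal + 16) they were Mlkl (0.998), Vcl (0.998), Ppm1m (0.997), Plekhj1 (0.997) and Tpm1 (0.995). Vcl, which encodes vinculin, read 7969, 4390 and 4482 in Dox(-) and 9362, 5850 and 5820 in Dox(+). Like Cd53 it was highest in EA15 and higher in Dox(+) within each set, with a smaller log2 difference of 0.34. The 6 points share 2 code sets and the same groups, so such values describe the ranking alone. Cd53 also had the largest difference between the sets among the brightest probe sets of the 6 genes.

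**Figure D4:**
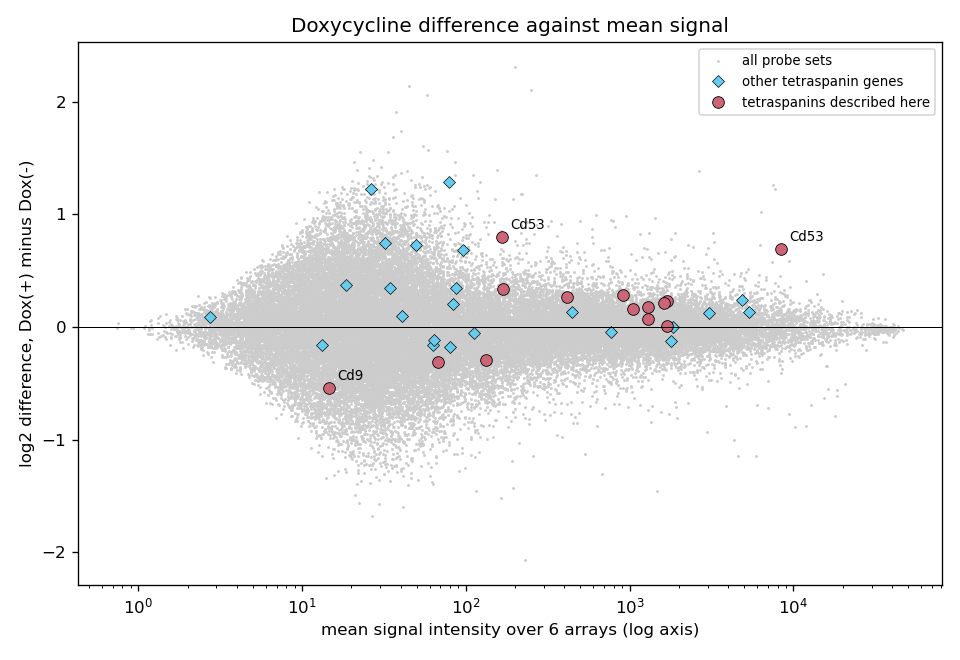
Log2 difference, Dox(+) minus Dox(-) with the code set as a block, against mean signal (log axis): all probe sets in grey, other tetraspanin genes as blue diamonds, the 14 tetraspanin probe sets as red circles. The bright Cd53 probe set, at a mean signal of 8425 and a difference of 0.69, stands above the other tetraspanins of high signal, of which the 6 brightest outside the 7 genes lie between -0.12 and 0.24.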

How the data were processed

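Labelled RNA of 6 samples was measured on Affymetrix arrays. The deposited values are signal intensities on a linear scale, 1 per probe set. The submitters' processing notes name Affymetrix Expression Console, with the algorithm not given in the sources used here, and no detection calls were used. The values show that every array had been scaled to one mean, 2% being trimmed at each end, which would hide a shift in total mRNA. Of 45101 probe sets 64 controls were left out; 34945 had 1 symbol in the platform annotation, 932 several and 9160 were unnamed. Signals were taken as log2(signal + 16), so ratios understate changes of dim probe sets, and no probe set was filtered.

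Tests used R 4.3.3 with limma 3.58.1 (lmFit, eBayes with trend; doxycycline and code set as terms; two-sided; Benjamini-Hochberg over 45037 probe sets). Groups came from the source names and code sets from the titles. Replicate numbers follow the order of the samples and pair nothing. Genes and lists were chosen with earlier results of these data known. Named genes were the 7 tetraspanins, the 6 brightest and all called ones among the other tetraspanins and the partners, Pax5 and Kidins220, and the 5 genes most correlated with Cd53. The small number of arrays limits the precision. On simulated data for Dox(+) against Dox(-) with 45037 probe sets, the fit recovered 17.5%, 30.4% and 64.7% of probe sets changed 1.5-, 2- and 4-fold, with 0 false calls. This does not give the share of false calls in the real arrays. Promoter windows came from RefSeq (GRCm38.p6) and were matched by symbol for all 7 genes.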

Additional observations from a re-analysis of the deposited data

Results flagged for a closer look

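In 6 probe sets the 4 comparisons of EA20 arrays all ran one way and the EA15 pair ran the other way; the difference between the sets was not tested. The log2 differences in EA15 and EA20 were -0.23 and 0.13 for Cd37 (1419206_at), -0.13 and 0.17 for Cd81, -0.026 and 0.37 for Cd82 (1416401_at), and -0.12 and 0.32 for Cd151 (1456085_x_at). They were 0.17 and -0.52 for Cd151 1427525_at and 0.42 and -0.67 for Cd151 1420921_at, with mean signals of 133 and 67.9. EA15 has 1 array per group, and 18% of all probe sets behaved in this way.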

How the results depend on the processing

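The count of probe sets called between Dox(+) and Dox(-), 39 in both directions, was 0 without the block, 0 without the trend, 62 with a pseudocount of 1, 7 with a pseudocount of 64 and 110 without probe sets under the 40th percentile of mean signal. Leaving out single arrays gave 0 to 37. It was 31 to 56 in the other alternatives. No other tetraspanin passed in any alternative, and 1 partner did (Adam17) in EA20 alone. Leaving out single arrays gave 0 to 1, the 1 without Dox(-) replicate 1. That fit also rests on EA20 alone for doxycycline, so it is not a separate result. Of the tetraspanin probe sets, 9 passed between the code sets, 3 without the trend and 5 with 1 probe set per gene, where 6 were tested; single arrays left out gave 6 to 9. All probe sets called between the code sets numbered 11176, 7392 without the trend and 6107 with 1 probe set per gene, and 7503 to 10402 with single arrays left out. Small differences had no firm sign: that of Cd37 1419206_at turned negative without replicate 2 of either group (-0.06 at the lowest), and that of Cd81 without Dox(-) replicate 3 or Dox(+) replicate 2 (-0.01 at the lowest). The other 12 probe sets kept the sign of their doxycycline difference in every alternative. Alternatives that changed only the block, trend, prior or choice of probe sets could not alter it. Signals near those of Cd9 limit any ratio.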

Other observations

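Among the other tetraspanins, Tspan15, which like Tspan14 escorts ADAM10, had the largest log2 difference with doxycycline, 1.29 (SE 0.52, limma adjusted p 0.49), and was named after its values were seen. It read 112, 14.8 and 15.8 in Dox(-) and 71.0, 134 and 126 in Dox(+), so it was higher with doxycycline in EA20 and lower in EA15. Adam10 itself was at -0.02. Adam17, the related protease, read 1211, 1516 and 1689 in Dox(-) and 1279, 2629 and 2623 in Dox(+). In EA20 alone it passed (limma adjusted p 0.036), while in EA15 its log2 difference was 0.08. Tspan11, also named after its values were seen, was close to Tspan15 at 1.23 (SE 0.34, limma adjusted p 0.30). Its brightest probe set read 11.6, 11.5 and 4.74 in Dox(-) and 56.6, 31.7 and 42.2 in Dox(+), higher in both sets. The other Tspan11 probe sets were at -0.68 to 0.30, and all were at low signal.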
